A study of Mus musculus with 3 samples.

Results

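The genes *Cma1*, *Mcpt1*, *Mcpt2*, *Mcpt4*, *Mcpt8* and *Cpa3* encode the secretory granule proteases of mouse mast cells and basophils, and they were 6 of the 32285 genes in the deposited count matrices. They were chosen by name, and the group was selected on measured values of these same libraries, in which *Cma1* transcripts had been seen in NK cells of the newly arrived fraction. The levels of *Cma1* across cell types, integrins and Kaede color are therefore described here with no test. Genes outside the choice were compared between NK cells with and without a *Cma1* transcript. The integrin genes *Itgam* and *Itga1* and the gate genes, among them *Ncr1*, *Cd3e*, *Cd8a* and *Cd8b1*, were part of the choice, so they too are described with no test.

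The cells were tumor-infiltrating leukocytes (TILs) from subcutaneous tumors of MC38-Ova, a mouse colon carcinoma line that expresses ovalbumin, grown in WT C57BL/6 Kaede mice treated with an isotype control. Kaede is a fluorescent protein that switches irreversibly from green to red under violet light. Tumors were illuminated on day 13 and taken on day 15, and the 48 h between these days separate Kaede-green (KG+) cells, which arrived after illumination, from Kaede-red (KR+) cells, which were already there. KG+ cells gave 2 libraries, named as biological replicates, and KR+ cells gave 1 library, so the spread between KR+ samples was unknown and the colors were compared without a test. The sort kept live CD45+ TER119- cells. The series' design text says that CD11b+ NK1.1- cells were then removed, whereas the study's methods give a gate on absent or low CD11b, and under the second of these NK cells with high CD11b would be missing from the *Itgam* values below. The paper states that its gating captured all of the NK compartment. Mast cells and basophils are only those that passed the sort, and no untreated, blood or spleen sample was analyzed here.

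Chymases and tryptases are serine proteases stored in mast cell granules together with carboxypeptidase A3 and histamine, and they are released when antigen crosslinks IgE on the FcεRI receptor. *Cma1* encodes mast cell protease 5, *Mcpt4* the chymase of connective tissue mast cells, *Mcpt1* and *Mcpt2* the chymases of mucosal mast cells, *Cpa3* carboxypeptidase A3, and *Mcpt8* a protease used as a basophil marker. NK cells kill through perforin and granzymes, and several granzyme genes share a chromosomal cluster with the mast cell chymases.

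Each cell was assigned by its raw counts of unique molecular identifiers (UMIs). The mast gate required *Ms4a2* of at least 1 UMI or *Gata2* of at least 2, the NK gate *Ncr1* of at least 1 with *Cd3e* of at most 1, the CD8 T gate *Cd3e* of at least 2 with *Cd8a* and *Cd8b1*, and the B gate *Cd79a* of at least 2. NK cells were divided by *Itgam* (CD11b), an integrin of circulating mature NK cells, and *Itga1* (CD49a), an integrin of tissue-retained NK cells. Of 34781 deposited cells, 31943 passed the filter of 1000 to 6000 genes and under 7.5% mitochondrial UMIs, and these held 8435 NK cells, namely 2598 and 2663 in the KG+ libraries and 3174 in the KR+ library. *Klrb1c* (NK1.1), which the gate did not use, was detected in 82.3% to 85.0% of the NK cells per library. Libraries held 87193225, 129438292 and 175848894 UMIs, and the median NK cell held 17241 UMIs in the KR+ library against 6129.5 in KG+ library 1. Pairs of libraries shared 20 to 36 cell barcodes.

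In the GENCODE M21 annotation of GRCm38, 5 of the 6 genes lay in 1 block of chromosome 14, each with 5 exons: *Cma1* at chr14:55941451-55944675 (minus strand), *Mcpt1* at chr14:56017971-56020384 (plus), *Mcpt2* at chr14:56042041-56044642 (plus), *Mcpt4* at chr14:56059629-56062313 (minus) and *Mcpt8* at chr14:56082166-56085273 (minus). The block went on through *Ctsg* and the granzymes to *Gzmb*, with 15 protein-coding genes over 321 kb and *Cma1* at its end opposite *Gzmb*. *Cpa3*, with 11 exons, lay at chr3:20215620-20242181 (minus). The last 500 bases of the transcripts, from which 3′ libraries read, shared no 31-base word between *Cma1* and the other genes of this set or the granzymes of the block. The 1 overlap was between *Mcpt4* and *Cma2*, at 20.4% of the words of *Mcpt4*, so reads of *Mcpt4* may be uncertain there.

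The 250 bases upstream of the start are shown for the genes with a RefSeq promoter (GRCm38.p6), 5 of 6, because *Cma1* was frequent in NK cells and the others were rare there. Capitals mark the letters of the GATA motifs AGATAA and TGATAA, which are bound by GATA factors such as the mast cell factor GATA2, and of the T-box half-site TCACACC, searched on both strands.
Cma1: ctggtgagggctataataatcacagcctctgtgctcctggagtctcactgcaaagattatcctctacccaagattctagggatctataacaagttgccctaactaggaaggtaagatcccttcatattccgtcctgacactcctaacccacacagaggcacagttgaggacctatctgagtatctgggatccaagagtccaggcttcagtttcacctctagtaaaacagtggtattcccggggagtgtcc
Mcpt1: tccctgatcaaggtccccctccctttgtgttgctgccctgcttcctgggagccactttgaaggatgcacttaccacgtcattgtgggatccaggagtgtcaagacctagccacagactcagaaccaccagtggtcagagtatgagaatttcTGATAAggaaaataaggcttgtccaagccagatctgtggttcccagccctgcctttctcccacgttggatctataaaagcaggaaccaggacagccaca
Mcpt4: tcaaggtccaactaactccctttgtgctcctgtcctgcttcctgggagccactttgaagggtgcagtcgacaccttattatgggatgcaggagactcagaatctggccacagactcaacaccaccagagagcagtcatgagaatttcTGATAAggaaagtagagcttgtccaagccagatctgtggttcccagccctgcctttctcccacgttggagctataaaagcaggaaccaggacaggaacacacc
Mcpt8: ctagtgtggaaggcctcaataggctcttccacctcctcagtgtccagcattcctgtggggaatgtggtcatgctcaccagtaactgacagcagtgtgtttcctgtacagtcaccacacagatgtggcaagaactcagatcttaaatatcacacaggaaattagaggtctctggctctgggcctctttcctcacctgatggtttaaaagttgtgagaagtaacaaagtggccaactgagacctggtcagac
Cpa3: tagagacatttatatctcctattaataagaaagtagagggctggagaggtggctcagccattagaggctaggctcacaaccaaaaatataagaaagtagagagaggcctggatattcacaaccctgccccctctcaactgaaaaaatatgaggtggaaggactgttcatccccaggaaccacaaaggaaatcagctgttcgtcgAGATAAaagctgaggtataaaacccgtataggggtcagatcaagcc

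These windows are chr14:55944676-55944925 for *Cma1*, chr14:56017714-56017963 for *Mcpt1*, chr14:56062311-56062560 for *Mcpt4*, chr14:56085198-56085447 for *Mcpt8* and chr3:20242182-20242431 for *Cpa3*. *Mcpt1* held TGATAA from 99 to 94 bases before its start, *Mcpt4* held TGATAA from 103 to 98 bases before, and *Cpa3* held AGATAA from 46 to 41 bases before. The windows of *Cma1* and *Mcpt8* held none of the 3 motifs as spelled. Other spellings of a GATA site were not searched. The *Cma1* window holds ctatct, which reads AGATAG on the other strand, so a lack of GATA sites in it was not shown. Over all 32851 RefSeq promoter windows of this length, 16.6% held a GATA motif (AGATAA 9.99%, TGATAA 7.94%) and 3.33% held the T-box half-site, so a match describes the letters only.

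The mast gate was small and mixed. It held 17 cells after the filter (5, 5 and 7 in KG+ library 1, KG+ library 2 and the KR+ library) and 23 among all deposited cells (7, 5 and 11). Of these 23 cells, 7 had a transcript of *Tpsb2*, the mast cell tryptase, and 6 of the 7 were KR+. All 7 carried *Cma1*, from 21 to 293 UMIs per cell, together with *Mcpt4* from 25 to 380 UMIs and *Cpa3* from 3 to 78 UMIs, and 6 of 7 carried *Mcpt2*. *Mcpt8* was at 0 in 6 of these 7 cells.

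A further 12 cells of the gate had *Hdc*, the histamine-forming enzyme, and neither *Tpsb2* nor *Cma1*. They came from all libraries (5, 4 and 3 cells). *Mcpt8* was found in 8 of the 12, from 1 to 28 UMIs in those cells, and *Cd200r3*, a receptor used as a basophil marker, in 10 of 12, although it was also in all 7 *Tpsb2* cells with 1 to 3 UMIs. *Mcpt1*, *Mcpt2* and *Mcpt4* were at 0 in all 12, and *Kit*, the stem cell factor receptor of mast cells, in 10 of 12. The mast cell label therefore fits the *Tpsb2* cells, and the larger class is called here by its genes, *Hdc* without *Tpsb2*.

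Of the other 4 cells, 1 KR+ cell had the highest mucosal chymase counts, with 2512 *Mcpt2*, 1006 *Mcpt1*, 596 *Mcpt8*, 545 *Cma1* and 277 *Cpa3* UMIs and 42 *Kit* UMIs. A KR+ cell outside the mitochondrial limit had 260 *Mcpt8* and 96 *Cma1* UMIs. A KG+ cell had 2 *Cma1* UMIs and no other protease, and another had *Kit* and *Cpa3* alone. The cell with 2 *Cma1* UMIs met the gate by 1 *Ms4a2* UMI, had no *Kit* or *Hdc*, and held 4 *Klrb1c* UMIs. In the heat map of the 23 cells, *Mcpt4* and *Tpsb2* marked one block of columns and *Hdc* without *Cma1* marked the other.

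**Figure D1:**
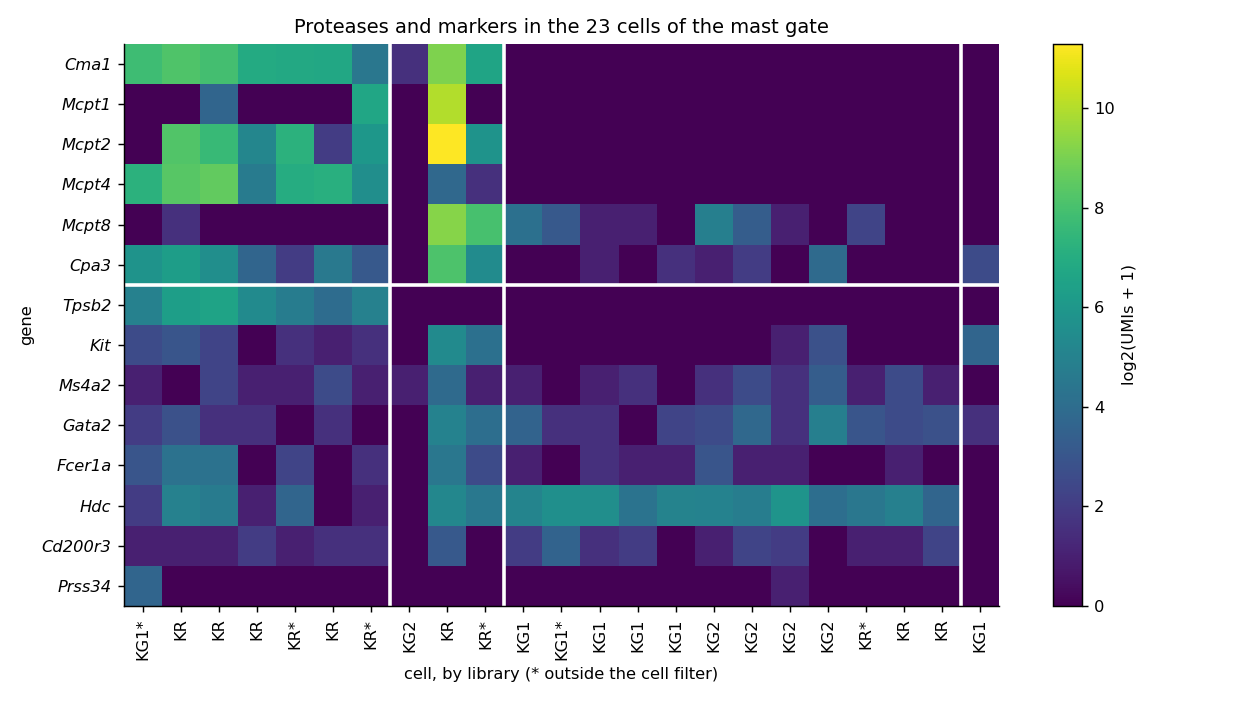
UMIs of the 6 proteases (upper rows) and of mast cell and basophil markers (lower rows) in each of the 23 deposited cells of the mast gate, as log2(UMIs + 1). White lines separate the 7 cells with *Tpsb2*, the 3 cells with *Cma1* and no *Tpsb2*, the 12 cells with *Hdc* only, and 1 cell with none of these. KG1, KG2 and KR name the library, and a star marks a cell outside the filter.

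Summed over the 17 filtered cells of the gate, the levels differed between libraries with this makeup. *Cma1* was at 0 UMIs in KG+ library 1, 2 UMIs in KG+ library 2 and 1308 UMIs in the KR+ library. *Mcpt1*, *Mcpt2* and *Mcpt4* were at 0 UMIs in both KG+ libraries and at 1018, 3041 and 887 UMIs in the KR+ library. The chymase UMIs of these filtered cells were thus nearly all KR+. The 1 KR+ cell described above held 1006 and 2512 of the *Mcpt1* and *Mcpt2* UMIs. *Mcpt8* and *Cpa3* were found in all 3 libraries, *Mcpt8* with 19, 38 and 598 UMIs and *Cpa3* with 8, 18 and 437 UMIs in the same order. With 5 to 7 cells per library, these sums describe single cells and not the abundance of mast cells by color. They also depend on the filter and the gate. In KG+ library 1 a *Tpsb2* cell outside the filter held 221 *Cma1* and 153 *Mcpt4* UMIs. Over all deposited cells *Mcpt1* had 1518 UMIs in KG+ library 2 and 1403 in the KR+ library. Of the 1518, 1433 were in 1 cell outside the gate, described below.

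A few cells outside the mast gate also met its marker rule, because they carried *Ncr1* or *Cd3e* as well. There were 7 such cells, 4 in KG+ library 2 and 3 in the KR+ library. In KG+ library 2, 1 cell of the NK gate with 1 *Ncr1* UMI, no *Klrb1c* and 49 *Kit* UMIs held 1433 of the 1453 *Mcpt1* UMIs and 345 of the 350 *Mcpt2* UMIs of all NK cells in that library. In the KR+ library, 1 cell of the CD8 T gate with 569 *Tpsb2* UMIs held 872 of 887 *Cma1* UMIs, 671 of 684 *Mcpt4* UMIs and 494 of 501 *Cpa3* UMIs of that gate. Levels below leave these 7 cells out unless stated, a choice made after seeing the data, and whether such barcodes held more than 1 cell was not tested. The thinned shares and the test of NK cells with and without *Cma1* kept these cells.

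*Cma1* was detected in NK cells of every library. In KG+ library 1 its level in NK cells was 33.6 counts per 1e6 summed UMIs (CPM), in KG+ library 2 it was 13.5 CPM and in the KR+ library 1.35 CPM. The KG+ libraries differed from each other by 2.49-fold, and the KR+ level was 9.98-fold below the lower of them. The share of NK cells with a *Cma1* UMI was 13.3% (exact 95% interval 12.0 to 14.7) in KG+ library 1, 8.54% (7.5 to 9.66) in KG+ library 2 and 2.05% (1.58 to 2.60) in the KR+ library, although the KR+ cells were the most deeply counted. These intervals cover counting error only.

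Counted to the same depth, the order was kept. With each NK cell thinned to 2000 UMIs, 6.89% (5.95 to 7.93), 3.49% (2.83 to 4.26) and 0.441% (0.241 to 0.739) held *Cma1* in KG+ library 1, KG+ library 2 and the KR+ library. CD8 T cells, which are not known for chymase, gave 0.289%, 0.116% and 0.0469% at that depth. Unthinned, the CD8 T level was 2.00, 1.11 and 0.210 CPM, below the NK level of the same library in each case, at median depths of 9062, 10699.5 and 14339 UMIs.

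**Figure D2:**
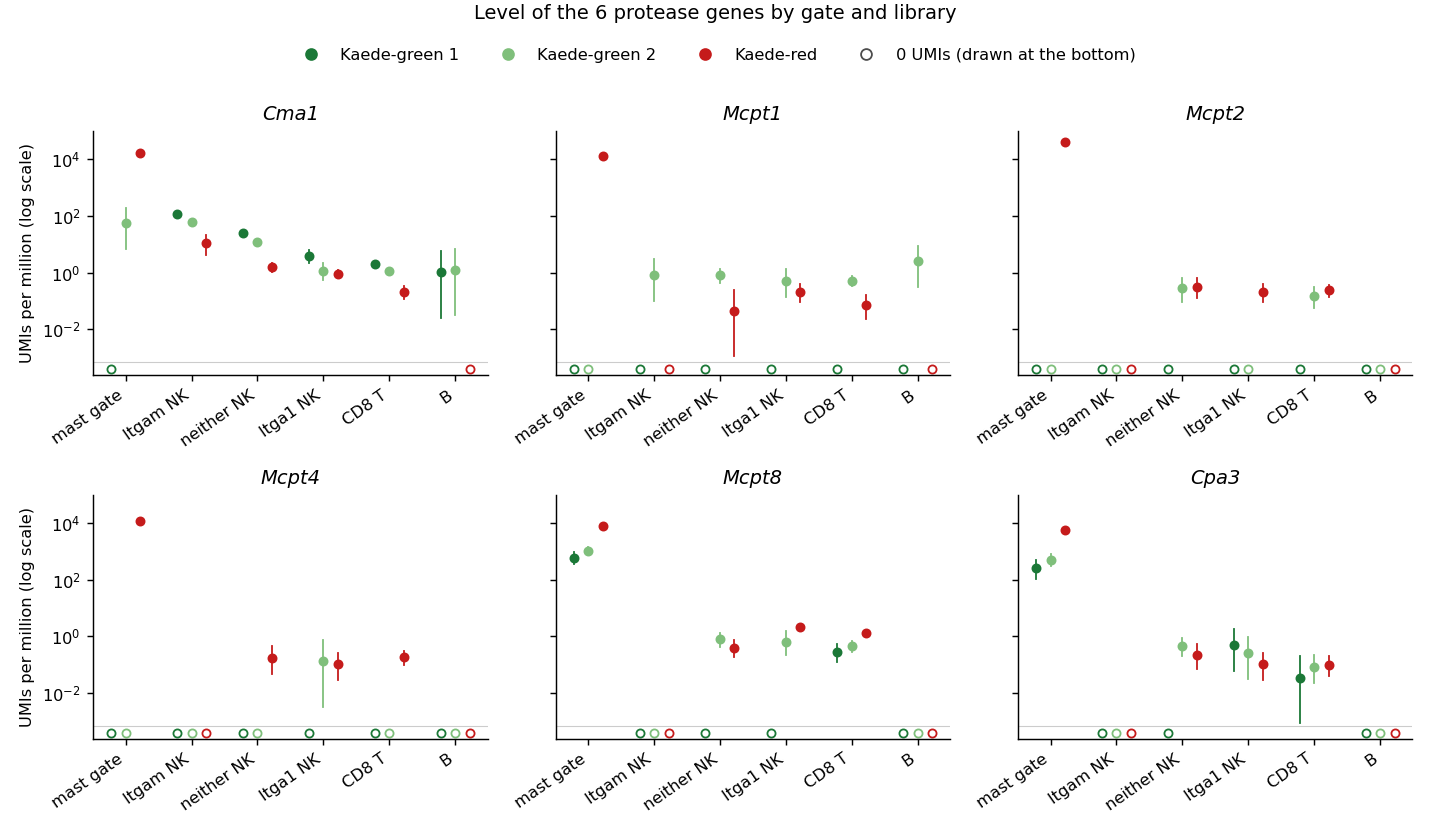
Level of each protease gene in CPM (log axis) in the mast gate, in NK cells by integrin transcript, and in CD8 T and B cells, for the 3 libraries. Points are library sums without the 7 cells described above, bars are exact 95% Poisson intervals of the count, and open circles at the bottom are sums of 0 UMIs. *Cma1* was the 1 gene of the 6 that was above 10 CPM in *Itgam* NK cells, in all 3 libraries.

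Among NK cells, *Cma1* was highest in those with *Itgam* and without *Itga1*. In these *Itgam* NK cells the level was 116 CPM in KG+ library 1 (425 cells), 61.4 CPM in KG+ library 2 (305 cells) and 10.8 CPM in the KR+ library (76 cells), and 32.2%, 22.6% and 5.26% of the cells held a *Cma1* UMI. In *Itga1* NK cells it was 3.94, 1.19 and 0.928 CPM in the same order, over 315, 489 and 1527 cells. B cells were at 1.03 and 1.25 CPM in the KG+ libraries, from 1 UMI each, and at 0 in 9 KR+ cells. Conventional CD4 T cells were above *Itga1* NK cells in KG+ library 2 alone, at 2.6 CPM. The *Itga1* values were thus not separated from the few B cells, and the ratios below divide by these values. The *Itga1* values were above the CD8 T values given earlier. Their Poisson intervals were separate in the KR+ library alone (0.65 to 1.28 against 0.118 to 0.347 CPM). The level in *Itgam* NK cells was above that in *Itga1* NK cells in every library, by 28.7-fold, 48.9-fold and 12.3-fold with 0.5 added to each count, a mean log2 ratio of 4.69 ± 1.01 (SD, n = 3). *Itga1* NK cells were deeper, with median counts of 9493, 12057 and 24478 UMIs against 5342, 6712 and 6701.

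Cells with neither integrin transcript lay between, at 25.7, 12.2 and 1.57 CPM, and cells with both at 58.0, 19.8 and 9.89 CPM. The order *Itgam*, both, neither, *Itga1* held in all 3 libraries. In the KR+ library *Itgam* and both had overlapping Poisson intervals, 4.33 to 22.2 and 3.63 to 21.5 CPM, as did neither and *Itga1*, 1.09 to 2.18 and 0.650 to 1.28 CPM, so those neighbors were not separated there. In KG+ library 2 both and neither also overlapped, 9.48 to 36.3 and 10.6 to 13.9 CPM. By share of cells in the KR+ library, cells with both (8.33% of 36) were above *Itgam* cells (5.26%). The highest NK cell held 19 *Cma1* UMIs, and 208 of the 346 positive cells of KG+ library 1 held 1 UMI.

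The lower level in KR+ cells was also seen within an integrin class. In *Itgam* NK cells the KR+ level was 7.83-fold below the pooled KG+ level (log2 ratio -2.97), where the KG+ libraries differed from each other by 1.89-fold. In cells with neither integrin it was 11.3-fold lower, where the KG+ libraries differed by 2.11-fold. In *Itga1* NK cells it was 2.34-fold lower, which is less than the 3.23-fold difference between the KG+ libraries. In cells with both integrins it was 3.11-fold lower, near the 2.89-fold difference between the KG+ libraries. Against KG+ library 2 alone, the lower of the KG+ libraries, the KR+ level was 5.34-fold lower in *Itgam* cells and 7.65-fold in cells with neither. It was 1.94-fold lower in cells with both and 1.34-fold in *Itga1* cells. KR+ *Itgam* NK cells were few and gave 7 *Cma1* UMIs, and Kaede color and library cannot be told apart in the KR+ sample.

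**Figure D3:**
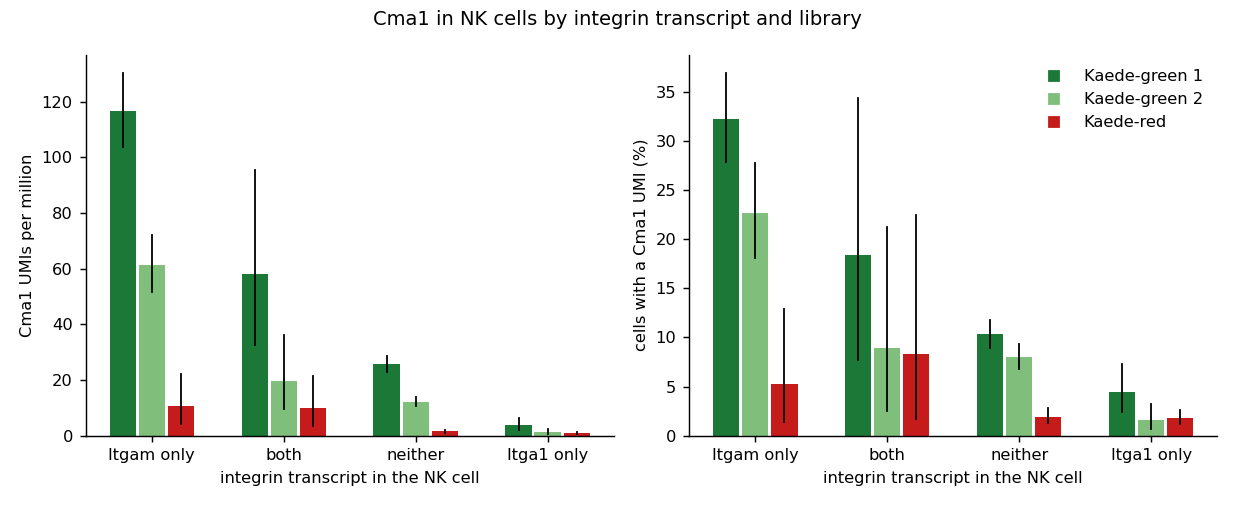
*Cma1* in NK cells by integrin transcript (x axis) and library (color), as CPM (left) and as the percentage of cells with a UMI (right). Black lines are exact 95% intervals of the count or share and cover counting error only. In level, the KG+ bars are above the KR+ bar in each class. In percentage of cells this holds except for *Itga1* cells, at 1.83% in the KR+ library and 1.64% in KG+ library 2. *Itgam* cells are above *Itga1* cells in each library.

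The other 5 proteases were rarely found with *Cma1* in NK cells. In KG+ library 1, *Mcpt1*, *Mcpt2*, *Mcpt4* and *Mcpt8* were at 0 UMIs over all 2598 NK cells, *Cpa3* had 2 UMIs in 1 cell, and *Cma1* had 668 UMIs in 346 cells. None of those 346 cells held a UMI of the other 5. A count of 0 allows up to 0.867% of cells with such a UMI, and at a median of 5051.5 UMIs per cell it sets no limit on cells that express one. In KG+ library 2, 3 of 227 cells with *Cma1* (1.32%) held another protease, against 1.69% of those without, and in the KR+ library 5 of 65 (7.69%) against 2.86%. Across libraries, 34 NK cells held 5 or more *Cma1* UMIs and 0 of them held another protease. With the marked cells included it was 1 of 35. Among NK cells without *Cma1* the share was 1.68% (131 of 7793), so 0 of 34 does not set these cells apart.

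*Mcpt1*, *Mcpt2*, *Mcpt4* and *Cpa3* were below 0.3 CPM in both NK and CD8 T cells. Over all libraries *Mcpt1* was at 0.263 CPM in NK and 0.204 CPM in CD8 T cells, *Mcpt2* at 0.182 and 0.163, *Mcpt4* at 0.0818 and 0.0884, and *Cpa3* at 0.191 CPM (0.118 to 0.292, 21 UMIs) and 0.0816 CPM (0.0422 to 0.143, 12 UMIs). The *Cpa3* value was thus higher in NK cells, with intervals that overlap at their edges. *Cma1* was at 10.2 CPM in NK and 0.844 CPM in CD8 T cells. *Mcpt1* was highest in KG+ library 2, at 0.718 CPM in NK cells, 0.525 in CD8 T cells and 2.50 in B cells (2 UMIs), the library that held the cell with 1433 *Mcpt1* UMIs. *Mcpt2* and *Mcpt4* had 0 UMIs over all 806 *Itgam* NK cells, which limits cells with a captured UMI to 0.372% and sets no limit on cells that express the genes.

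The proportion of *Cma1* to *Cpa3* in summed UMIs also differed between the gates. *Cma1* made up 73.9% (exact interval 71.8 to 75.9) of the *Cma1* and *Cpa3* UMIs of the mast gate, with 0 of 8 UMIs in KG+ library 1, 10.0% of 20 in KG+ library 2 and 75.0% in the KR+ library. Without the KR+ library the share was 7.14%, and its 2 *Cma1* UMIs were in the cell with *Klrb1c* described above. The interval treats each UMI as independent and leaves out the spread between the few cells of the gate. In the KR+ library 1 cell without *Tpsb2* held 545 of the 1308 *Cma1* and 277 of the 437 *Cpa3* UMIs. The 4 filtered *Tpsb2* cells held 107, 120, 243 and 293 *Cma1* against 23, 12, 47 and 78 *Cpa3* UMIs. In NK cells it made up 98.2% (97.2 to 98.9), with 99.7%, 97.4% and 90.3% in KG+ library 1, KG+ library 2 and the KR+ library. With the 4 marked cells of the NK gate included, the share was 82.0%, and in KG+ library 2 it was 62.0%, because 208, 19 and 3 of the 240 *Cpa3* UMIs were in 3 of them. In CD8 T cells without the marked cell *Cma1* made up 91.2% (85.1 to 95.4) of 124 *Cma1* and 12 *Cpa3* UMIs. By library the CD8 T share was 98.2%, 93.0% and 68.2%, so a high share was not particular to NK cells. The KR+ mast gate summed 1308 *Cma1*, 887 *Mcpt4* and 437 *Cpa3* UMIs, whereas NK cells of KG+ library 1 summed 668, 0 and 2.

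**Figure D4:**
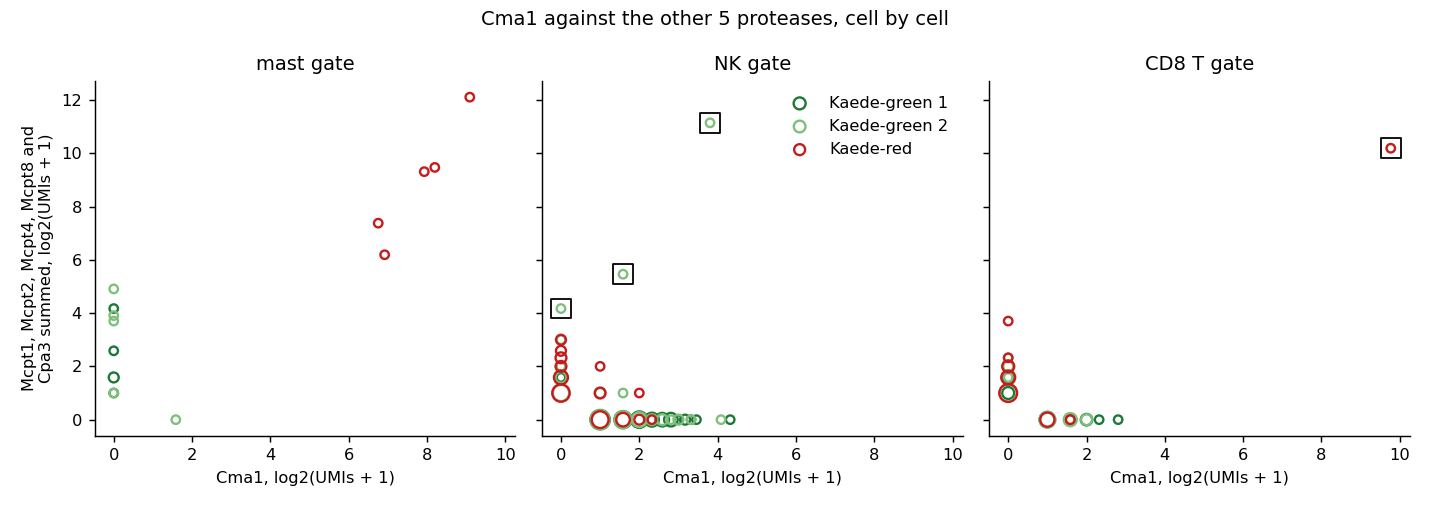
*Cma1* UMIs (x axis) against the summed UMIs of the other 5 proteases (y axis) per cell, both as log2(UMIs + 1), for cells of the mast, NK and CD8 T gates with at least 1 UMI of the 6 genes. Circle size grows with the number of cells at a position, and squares mark cells outside the mast gate that met its marker rule. NK cells with *Cma1* lie along the x axis, and mast gate cells with high *Cma1* also have high values on the y axis.

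*Cma1* in other gates was low or shared NK markers. Of 1088 cells with *Cma1* that passed the filter, 640 were in the NK gate, 90 in the CD8 T gate, 12 among regulatory T cells, 7 among conventional CD4 T cells, 6 in the mast gate and 2 among B cells. Another 331 met no gate, of which 293 had *Cd3e* of at most 1 and 244 of these also *Klrb1c*. Of the 90 CD8 T cells, 59 held *Klrb1c* or *Ncr1*. Over all CD8 T cells of a library, *Klrb1c* was in 8.71% to 13.6% and *Ncr1* in 5.70% to 9.31%. The share with *Klrb1c* over all cells of no gate was not counted. Monocytes and macrophages had 0 *Cma1* UMIs over 162 cells, and B cells had 2 UMIs over 345 cells.

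*Mcpt8* in NK cells was found mainly in the *Itga1* cells of the KR+ library. In the KR+ library 61 NK cells held 102 *Mcpt8* UMIs, of which 51 *Itga1* NK cells held 85 and *Itgam* NK cells 0, and 64 CD8 T cells held 97. In KG+ library 1 it was at 0 in NK cells and had 8 UMIs in 6 CD8 T cells, and it had 0 UMIs in B cells of all libraries. Its level in the KR+ library was 2.19 CPM in *Itga1* NK cells and 1.36 CPM in CD8 T cells. In KR+ NK cells with both integrins, 8 UMIs in 2 of 36 cells gave 13.2 CPM. The 0 in KR+ *Itgam* NK cells rested on 76 cells. Its Poisson limit of 5.68 CPM is above the *Itga1* value, so it does not set these classes apart.

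In the KR+ library, NK and CD8 T cells with *Mcpt8* had higher levels of granzymes of the same chromosome 14 block. In KR+ *Itga1* NK cells, *Gzmd* was at 7921 CPM in the 51 cells with *Mcpt8* and 1966 CPM in the 1476 without, and *Gzmf* at 6412 and 1649 CPM. *Gzmb*, which is at the end of the block, was at 4458 and 3883 CPM. In KG+ library 2 only 4 *Itga1* NK cells held *Mcpt8*, and there *Gzmf* went the other way, at 77.3 CPM with and 377 CPM without, as did *Gzmb* at 2695 and 3625 CPM. *Gzmg* was also lower in those 4 cells, at 0 against 100 CPM. *Gzmc* (18725 against 10874 CPM), *Gzmd* (1823 against 740) and *Gzme* (740 against 328) were higher. Over all NK cells of KG+ library 2, *Gzmf* was at 3283 CPM in 14 cells with *Mcpt8* and 148 CPM without, and *Gzmb* at 3634 and 4233 CPM. In KR+ CD8 T cells *Gzmf* was at 14489 CPM with and 3674 CPM without *Mcpt8*. In CD8 T cells of KG+ library 1 it was at 10130 CPM in 6 cells with and 518 CPM without. In those of KG+ library 2 it was at 5812 CPM in 19 cells with and 634 CPM without. The KR+ cells with *Mcpt8* were deeper, with a median of 37320 against 24164.5 UMIs in *Itga1* NK cells and 25459 against 14185 in CD8 T cells. Cells with *Mcpt8* were deeper in the KG+ libraries too, and the part of depth in all these differences was not tested.

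Within the block, *Gzmc* and *Gzmd* were lower in *Itgam* than in *Itga1* NK cells, the reverse of *Cma1*. *Gzmc* was at 261, 268 and 3297 CPM in *Itgam* NK cells and at 10358, 10968 and 20496 CPM in *Itga1* NK cells of KG+ library 1, KG+ library 2 and the KR+ library, lower in *Itgam* cells each time. *Gzmd* was at 2.68, 16.1 and 36.9 CPM against 443, 753 and 2254 CPM. *Gzmb* was at 4620, 3782 and 3434 CPM against 3726, 3613 and 3910 CPM, with no common direction. *Cma2*, the gene next to *Cma1*, was at 0 CPM in *Itgam* and *Itga1* NK cells of each library, as was *Mcpt9*.

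NK cells with at least 1 *Cma1* UMI were next compared with NK cells without one, to describe which cells carry it. Summed counts per library were tested with edgeR's quasi-likelihood method, with library as a block, over 10969 genes. At an adjusted p under 0.05 (Benjamini-Hochberg), 105 genes (0.957% of those tested) were higher and 80 (0.729%) lower in cells with *Cma1*, and without the marked cells 149 were higher and 125 lower. Cells with *Cma1* were shallower, with medians of 5051.5, 6598 and 14489 UMIs against 6330.5, 8348 and 17327. *Cma1* defined the groups and is no result of this test. The 105 include *Itgam* and *Mcpt8*, which were part of the choice and are no results of it either. Both groups came from the same libraries, and the block takes out differences in level between libraries. The p-values rest on how the difference between cells with and without *Cma1* varied over 3 libraries. The method shares this spread across genes, so a p-value does not rest on the variation of its own gene alone.

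Cells with *Cma1* carried more transcripts of some genes of circulating, mature NK cells. Of 20 genes listed for NK maturation and circulation, 19 were in the fit, 7 were above the threshold, *Itgam* among them, and none fell, with a median log2 fold change of 0.66 against 0.00 over all genes. The 19, the 7 and the median include *Itgam*, which was part of the choice. *Itgam* was at 108, 59.8 and 8.18 CPM with and at 24.9, 14.3 and 2.24 CPM without *Cma1* in KG+ library 1, KG+ library 2 and the KR+ library, higher in each, which restates the integrin pattern above and is no result of the test. *S1pr5*, the sphingosine phosphate receptor used for exit from tissue into blood, was at 15.3, 8.95 and 4.09 CPM with and 3.76, 1.34 and 0.867 CPM without, 4.75-fold higher. *Klrg1*, an inhibitory receptor of terminally mature NK cells, rose 3.16-fold, *Itga2* (CD49b) 2.34-fold, *S1pr1* 2.13-fold, the transcription factor gene *Eomes* 1.67-fold and *Cd7* 1.55-fold. The other 12 did not pass, and some had no common direction over the libraries. *Cx3cr1* was at 27.6, 24.6 and 0.818 CPM with and 2.97, 4.94 and 3.78 CPM without *Cma1* (adjusted p = 0.076). *Zeb2* was at 107, 87.8 and 22.9 CPM with and 53.8, 46.7 and 26.8 CPM without (adjusted p = 0.10).

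Chemokine genes were higher as well. *Ccl5* rose 3.18-fold (log2 1.67 ± 0.07, adjusted p = 1.6e-05), *Ccl3* 3.15-fold (1.66 ± 0.09, adjusted p = 7.0e-05), *Ccl4* 2.22-fold and the interferon gene *Ifng* 1.60-fold. *Xcl1*, which attracts dendritic cells, was 1.67-fold lower with *Cma1* (log2 -0.74 ± 0.08, adjusted p = 0.0057). Of 10 chemokine and cytokine genes tested, 4 rose, 1 fell and 5 did not pass, with a median log2 fold change of 0.25.

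Retention and inhibitory receptor genes went the other way or did not pass. Of 14 tested, 0 rose and 2 fell, with a median log2 fold change of -0.48. *Lag3*, an inhibitory receptor, was 2.14-fold lower (log2 -1.10 ± 0.18, adjusted p = 0.020), and *Xcl1* is in this list too. *Pdcd1* (PD-1) was 2.13-fold lower with adjusted p = 0.085. The 14 and the median include *Itga1*, which was part of the choice and is no result of the test. *Itga1* was at 12.3, 10.1 and 75.3 CPM with and 32.7, 36.1 and 70.6 CPM without *Cma1*.

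Granule genes were split. Of 14 genes of the chromosome 14 block 7 were in the fit and 1, *Gzmf*, fell, with a median log2 fold change of -1.81. The 7 and the median include *Mcpt8*, which was part of the choice and is described below. *Gzmf* was 6.18-fold lower in cells with *Cma1* (log2 -2.63 ± 0.30, adjusted p = 0.0057), at 5.91, 16.2 and 376 CPM against 82.7, 189 and 1276 CPM. *Gzmc* was 11.7-fold lower with adjusted p = 0.070, at 132, 157 and 12968 CPM with and 3462, 5077 and 16615 CPM without. Its difference was thus small in the KR+ library. *Gzmd* (adjusted p = 0.21) was higher with *Cma1* in that library, at 2033 against 1509 CPM, and lower in the KG+ libraries. *Gzmb* differed by 1.03-fold with adjusted p = 0.83. *Gzma*, which lies outside the chromosome 14 block, was 1.67-fold higher (adjusted p = 0.0052), the 1 of 13 other granule genes that passed (median log2 fold change 0.18). Perforin (*Prf1*) was 1.32-fold higher with adjusted p = 0.15.

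No mast cell or basophil gene outside the choice passed the test. *Mcpt8* was part of the choice and is no result of the test, and its higher sum rested on 2 cells. Of 25 mast cell genes 8 were kept by the count filter and none passed the test (median log2 fold change 0.62). *Slc18a2*, the granule amine transporter, was 2.47-fold higher with adjusted p = 0.14. Of 12 basophil genes 3 were in the fit (median 1.73, with *Mcpt8* included), and none apart from *Mcpt8* passed. The count filter, which asks for counts in several sums, left out *Mcpt1*, *Mcpt2*, *Mcpt4* and *Cpa3*. In cells with *Cma1* of KG+ library 2, *Mcpt1* had 1435, *Mcpt2* 345 and *Cpa3* 228 UMIs. Of these, 1 marked cell held 1433, 345 and 208. *Mcpt8* was 33.4-fold higher, but 293 of its UMIs in cells with *Cma1* were in KG+ library 2. Of these, 269 and 24 were in 2 marked cells. Without the marked cells that library had 0 *Mcpt8* UMIs in cells with *Cma1* and 19 in cells without. Without KG+ library 2 the log2 fold change of *Mcpt8* was 0.54 ± 1.25. None of 8 genes of other cell types in the fit and none of 12 dissociation and immediate early genes passed (median log2 fold changes -0.01 and 0.26). The 8 and their median include *Cd3e*, which the NK gate capped at 1 UMI per cell, and the gate genes *Cd8a* and *Cd8b1*. These genes were part of the choice and are no result of the test.

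Among genes with an adjusted p under 0.05 and 1 direction in all libraries, and apart from *Itgam*, the largest rises were in *Gpx8*, *Mcam*, *Cym*, *Tgfbi*, *Fcgr2b*, *Gm10522*, *S1pr5*, *Ccdc146* and *Cmklr1*, from 7.94-fold down to 3.64-fold. In the KR+ library *Cym*, *Tgfbi*, *Fcgr2b*, *Gm10522* and *Cmklr1* were each at 0.818 CPM in cells with *Cma1*. That sum held 1221943 UMIs, so their direction in this library rested on very few UMIs. *Tgfbi* turned to a log2 fold change of -2.38 when *Cma1* status was set after thinning to 2000 UMIs. *Gpx8*, a glutathione peroxidase-like enzyme, was at 12.8, 9.5 and 2.46 CPM with and 1.40, 0.957 and 0.540 CPM without *Cma1*. *Cmklr1* encodes a receptor for chemerin found on circulating NK cells, *Fcgr2b* the inhibitory Fcγ receptor, and *Mcam* the adhesion molecule CD146. By the same limits the largest falls were in *Mest*, *Krt83*, *Gzmf*, *Ly6d*, *Ung*, *Tmem176a*, *Prss2*, *Prelid2*, *Pus7* and *Tnfsf11*, from 7.29-fold to 3.16-fold. *Krt83*, a hair keratin gene, was at 2.46, 9.5 and 2.46 CPM with and 27.1, 33.2 and 30.7 CPM without, below in all 3 libraries.

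**Figure D5:**
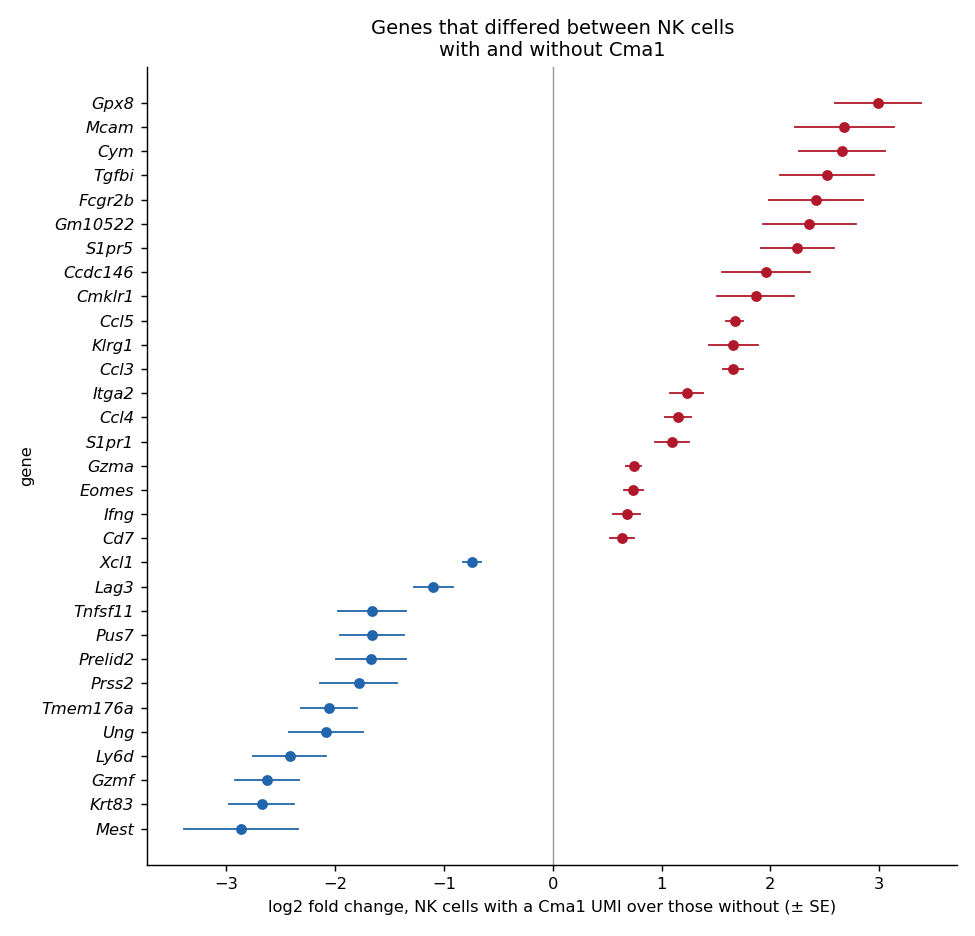
Log2 fold change (x axis, bars ± SE) of NK cells with a *Cma1* UMI over NK cells without, for the 10 largest changes each way and the listed genes that passed an adjusted p under 0.05 in edgeR's quasi-likelihood test over 3 libraries. *Mcpt8* and *Itgam*, which were part of the choice, are not drawn. *S1pr5* and *Klrg1* are on the right and *Gzmf*, *Lag3* and *Xcl1* on the left.

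Within *Itgam* NK cells, fewer genes separated the cells with *Cma1* from those without. Of 6045 genes tested, 11 (0.182%) were higher and 31 (0.513%) lower. Fewer cells with *Cma1* entered, 137, 70 and 4 in KG+ library 1, KG+ library 2 and the KR+ library, against 346, 229 and 65. The KR+ sum with *Cma1* held 38808 UMIs, and the part of the smaller counts in the fewer calls was not tested. Of the genes named for all NK cells that were in this fit, 4 kept their call, 7 lost it and 3 changed direction. The other named genes were not among those tested here. *Klrg1* remained higher (log2 1.64 ± 0.26), as did *Itga2* (0.75 ± 0.16), and *Xcl1* (-1.03 ± 0.19) and *Gzmf* (-1.59 ± 0.41) remained lower. *Ccl5* was at 0.59 ± 0.18 and *Ccl3* at 0.24 ± 0.15 and did not pass, and *Ccl4* and *Ifng* were at -0.036 ± 0.20 and -0.086 ± 0.13. Leaving out the KR+ library raised the calls over all NK cells to 1068 higher and 1174 lower, and leaving out KG+ library 1 gave 59 and 65.

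The genes most like *Cma1* in pattern were found over sums per library and gate, which share libraries and differ in depth, so the values are descriptions. Over 24 sums without the mast gate, the highest Pearson correlations of log2(CPM + 1) among 10184 genes were *Phactr3* (0.90), *Gm43647*, *Tfip11*, *Gm37469*, *Fam184a*, *Itga2* (0.85), *Gm28347*, *Npc1*, *Dhrs3* and *Muc1* (0.82). *Itga2*, the integrin of circulating NK cells, was the one of these that also passed the test of cells with *Cma1* among the genes named above. Over 27 sums with the mast gate the order changed, with *Catsperd* (0.87), *Aqp11*, *Elovl7*, *Gm45639*, *Nos1ap*, *Gm28379*, *Pde1c*, *2600006K01Rik*, *Olfr921* and *Reps2* first, and *Mcpt2* at rank 64, *Mcpt1* at 73, *Mcpt4* at 82, *Cpa3* at 211 and *Mcpt8* at 286. The mast gate sums held 31604 UMIs in KG+ library 1, so a few UMIs set the place of such genes.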

How the data were processed

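Single-cell RNA-seq was made with the 10x Genomics 3′ chemistry from 3 libraries. The authors aligned the reads to mm10 and deposited filtered matrices of raw UMI counts per gene and cell. Per the matrix headers the software was Cell Ranger 6.0.1, and the submitters' processing notes name version 6.1.2. No column lacked a sample (0 columns). The cells analyzed are those of the 3 deposited matrices, and a larger working set of the study was not analysed here.

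The cell filter required between 1000 and 6000 detected genes, with less than 7.5% of UMIs from mitochondrial genes. No doublet caller was run. Cells that met more than 1 gate (23, 35 and 2 per library) were put in none, and alternatives left out the 5% of cells with most UMIs. Counts were summed per gate and library. Levels are counts scaled to 1e6 summed UMIs (CPM), with exact Poisson intervals, and shares have exact Clopper-Pearson intervals, at 95%, for counting error only. A count of 0 was given the limit of 3 counts. Ratios of *Cma1* levels had 0.5 added to each count. Sums of NK cells with and without *Cma1* were compared with edgeR 4.0.16 (R 4.3.3) by its quasi-likelihood test with TMM factors, filterByExpr and library as a block, with Benjamini-Hochberg adjustment over all genes tested and a threshold of 0.05. The test was checked on simulated counts. The block pairs cells of the same library, so the pairing comes from the design. DESeq2 1.42.0, other size factors, filters, depth thinning to 2000 UMIs, other gates and leaving out each library were alternatives, and leaving out the cells with mast cell markers was chosen after seeing the data.

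The genes, gates and gene lists were chosen with earlier results of these data known. Named were the 6 proteases, the 10 largest changes each way at an adjusted p under 0.05 with the same direction in all 3 libraries (mitochondrial, ribosomal, immunoglobulin and T cell receptor genes and *Cma1* left out), up to 6 members per list, first those that passed, and the 10 genes most correlated with *Cma1*. In the NK maturation list 7 members passed, so *Cd7* was named beyond this rule after its value was seen, as were *Cx3cr1* and *Zeb2*, which did not pass. Python 3.11.15, numpy 2.4.6, scipy 1.17.1, pandas 2.3.3 and matplotlib 3.10.9 were used.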

Additional observations from a re-analysis of the deposited data

How the results depend on the processing

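The higher *Cma1* level in *Itgam* than *Itga1* NK cells (mean log2 ratio 4.69) was 3.64 after thinning to 2000 UMIs and 5.76 with at least 2 UMIs of an integrin, and 4.23 to 5.23 without 1 library. The KR+ over KG+ log2 ratio of *Cma1* in NK cells (-4.03 with all cells) was -2.97 within *Itgam* NK cells and -1.23 within *Itga1* NK cells. The share of NK cells with *Cma1* fell after thinning from 10.9% to 5.17% in KG+ and from 2.05% to 0.441% in KR+ cells. The *Cma1* share of *Cma1* and *Cpa3* UMIs in NK cells was 82.0% with all cells, 96.5% without the 5% of cells with most UMIs, 98.2% without the marked cells, and 65.6% to 98.6% without 1 library, the extremes being without KG+ library 1 and KG+ library 2. In the mast gate it was 73.9%, 82.1% without those 5%, and 7.14% to 74.6% without 1 library, the lowest being without the KR+ library. The mast gate held 17 cells and 9 with *Ms4a2* of at least 2. The counts of genes that differed with *Cma1* (105 higher and 80 lower) depended on the setting. They were 0 and 0 with edgeR and no replicate block (426 genes at an unadjusted p under 0.05, and DESeq2 with the block called 151 and 188), 302 and 835 with no filter on low counts, 485 and 873 with *Cma1* status after thinning, 281 and 521 with at least 2 *Cma1* UMIs, 11 and 31 within *Itgam* NK cells, and 200 and 209 without the 5% of cells with most UMIs. Without the marked cells 125 were lower. Without 1 library they ranged from 59 to 1068 higher and from 65 to 1174 lower, the smallest being without KG+ library 1 and the largest without the KR+ library. The cause of these changes was not tested. Of the single genes, *Tgfbi* turned to -2.38 with status after thinning, and *Cd7* (-0.16), *Ccl4* (-0.036) and *Ifng* (-0.086) turned within *Itgam* NK cells. With RLE factors and without the KR+ library all 33 named genes, *Itgam* and *Mcpt8* included, kept direction and call, and DESeq2 lost the call of 18.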

Other observations

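Color and library coincide for KR+ cells, which had 1 library, and the labels do not say whether a library pooled tumors. The sort selected on CD11b, so numbers of mast cells and basophils do not describe the tumor. Numbers of *Itgam* NK cells may not describe it either, depending on which of the sort descriptions given above holds. The gates rest on 1 or 2 UMIs of a few genes. Of the NK cells with *Cma1*, 208 of 346, 147 of 229 and 51 of 65 held 1 UMI, so cells without a UMI are cells in which it was not detected. *Cma1* status depends on depth, and cells with *Cma1* were shallower than those without in all 3 libraries.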
